A study of Mus musculus with 4 samples.

Results

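OPC-only gene-body regions are stretches of chromatin inside genes that carried a listed accessibility peak in both libraries of mouse oligodendrocyte progenitor cells (OPCs) and in neither library of oligodendrocytes (OLs). They were selected on the peak lists themselves. Overlapping or touching peaks of the 4 lists were merged, and a merged region was kept when both OPC lists and no OL list had a peak in it, when its midpoint lay inside a protein-coding gene of the mm10 RefSeq annotation, and when that midpoint lay more than 1 kb from either end of every protein-coding gene. The rule kept 10743 of 229743 merged regions, which is 9.26% of the 115975 regions inside gene bodies. Because these lists chose the regions, the difference between OL and OPC that defines them is a description and carries no test.

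The assay was Omni-ATAC-seq. Tn5, a transposase, cuts accessible DNA and adds sequencing adapters at the cuts. The OL group was 1 library each of O1-sorted OLs from the epiblast stem cell lines EpiSC5 and 129O1, and the OPC group was 1 library of OPCs from each of the same lines, so n = 2 in each group. The O1 antigen is a galactolipid that marks oligodendrocytes past the progenitor stage. Both lines are pluripotent mouse cells of the 129SvEv and 129S1/SvImJ strains, and the labels do not say which strain gave which line. All cells therefore came from culture and not from tissue. OPCs of both lines were grown on poly(L-ornithine) and laminin with bFGF at 20 ng/mL, PDGFA at 20 ng/mL and no SHH, sorted with CD140a and NG2 antibodies after 4 passages, and expanded again. Whether separate differentiations gave the libraries is not stated, and with 2 libraries per group no exact permutation test could reach significance. The lists held 152595 (EpiSC5) and 127196 (129O1) peaks in OLs, against 125002 (EpiSC5) and 129534 (129O1) peaks in OPCs. The lists give no read counts, which leaves the depth unknown, and a missing peak means that none passed the authors' threshold.

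OPCs are the dividing precursors of the cells that wrap axons in myelin. Gene bodies, and introns above all, hold many enhancers, short stretches of DNA where transcription factors bind and raise the activity of a promoter that may lie far away. They also hold inner promoters from which shorter transcripts start. When a progenitor differentiates, some of these elements close and others open, often in the same gene. A peak inside a gene can therefore belong to an enhancer of that gene, to an inner promoter or to an element of a neighbouring gene, and peak lists cannot tell these apart.

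The sequences that could be read beside the peaks were those at inner transcription starts, since RefSeq start windows (250 bases before to 50 after each start, GRCm38.p6, the assembly named mm10) were the sequence at hand. Such windows were at hand for 17491 protein-coding genes, against 21883 in the annotation that placed the regions. Regions in genes without a window stay in the totals, so the shares of regions at a start are lower bounds. Of the 10743 regions, 162 (1.51%) overlapped such a window, 105 of them at a start of a protein-coding gene and 60 at a start of a long noncoding RNA. Among OL-only gene-body regions, defined in the converse way, the share was 86 of 22196 (0.387%), and among gene-body regions with a peak in all 4 lists it was 1717 of 23982 (7.16%). The 176 windows concerned included 112 of the gene that holds the region, from 103 genes, and their starts lay at a median of 16.3 kb from the outermost start of the gene. Peaks of both OPC lists covered at least 150 bases of 65 windows, and 60 of these had no base in an OL peak. In the other 5 an OL peak beside the OPC-only region reached into the window. The stretches below end at the last base before the inner start, are written 5′ to 3′ on the strand of the gene, and are cut to the bases inside a peak of both OPC lists. All are starts of the gene that holds the region and come from the 60 windows. Among such starts the first 4 have the highest fold enrichment in the weaker OPC list, and the others belong to genes of the lists described further on. Capitals mark an AP-1 (TGANTCA), SOX (ACAAT), E-box (CAGCTG), GC box (GGGCGG) or TEAD (GGAATG) motif on either strand, none of which contains another.
Tmem108 chr9:103692808-103693040 (- strand): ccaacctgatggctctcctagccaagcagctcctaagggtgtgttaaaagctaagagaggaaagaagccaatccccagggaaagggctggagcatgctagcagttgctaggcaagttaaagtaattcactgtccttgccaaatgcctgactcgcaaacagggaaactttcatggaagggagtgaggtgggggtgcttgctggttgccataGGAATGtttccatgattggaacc
Arhgap6 chrX:169112737-169112877 (+ strand): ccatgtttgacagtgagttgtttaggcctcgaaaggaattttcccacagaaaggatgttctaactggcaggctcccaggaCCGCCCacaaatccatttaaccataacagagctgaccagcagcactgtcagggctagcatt
Pla2g5 chr4:138819258-138819389 (- strand): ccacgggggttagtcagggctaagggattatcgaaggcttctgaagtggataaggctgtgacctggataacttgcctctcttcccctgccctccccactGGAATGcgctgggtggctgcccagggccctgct
Fhl1 chrX:56786334-56786526 (+ strand): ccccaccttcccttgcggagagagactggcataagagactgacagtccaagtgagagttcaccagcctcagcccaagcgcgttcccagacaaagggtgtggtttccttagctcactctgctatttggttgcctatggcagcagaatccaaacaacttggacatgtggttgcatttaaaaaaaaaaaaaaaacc
Prrx1 chr1:163313651-163313847 (- strand): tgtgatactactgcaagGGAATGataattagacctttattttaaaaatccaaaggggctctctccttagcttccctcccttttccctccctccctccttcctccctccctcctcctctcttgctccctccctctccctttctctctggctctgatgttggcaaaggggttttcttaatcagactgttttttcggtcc
Cntnap2 chr6:47244229-47244395 (+ strand): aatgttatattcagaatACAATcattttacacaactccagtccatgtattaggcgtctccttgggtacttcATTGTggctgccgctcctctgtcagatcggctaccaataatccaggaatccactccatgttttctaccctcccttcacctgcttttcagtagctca
Emid1 chr11:5150075-5150218 (- strand): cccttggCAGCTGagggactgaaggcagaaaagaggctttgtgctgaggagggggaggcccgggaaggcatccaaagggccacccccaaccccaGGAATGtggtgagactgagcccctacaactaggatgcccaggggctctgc
Aldoc chr11:78324073-78324197 (+ strand): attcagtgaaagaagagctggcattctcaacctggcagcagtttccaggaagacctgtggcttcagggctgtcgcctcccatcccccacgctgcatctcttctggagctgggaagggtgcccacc

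Arhgap6 encodes a GTPase-activating protein, Pla2g5 a secreted phospholipase, Fhl1 a LIM-domain protein of muscle, Prrx1 a homeobox factor of mesenchyme, Cntnap2 a neurexin-like protein of myelinated axons and Aldoc an aldolase of astrocytes. The inner start of Cntnap2 lay 2184 kb from its outermost start, and that of Arhgap6 317.8 kb, whereas that of Prrx1 lay 1.495 kb and that of Emid1 2.248 kb away. At the Tmem108 start the peak had a fold enrichment of 11.4 in EpiSC5 OPCs and 10.99 in 129O1 OPCs. At the Aldoc start these values were 3.27 in EpiSC5 OPCs and 3.63 in 129O1 OPCs, the weakest of the 8 in both lists. The fold enrichment over background, like every fold, width and −log10 q below, is the authors' own value for the peak and ranks peaks only within a list.

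In the 250 bases before the start, the 60 windows without an OL peak held 53.98% G and C and 2.71 CpG dinucleotides per 100 bases. The 11178 windows with at least 150 bases covered in all 4 lists held 63.2% and 7.95, and all 32851 windows held 53.2% and 3.94. A GC box was found in 30% of the 60, against 66.6% of windows open in all 4 lists and 32.7% of all windows. The AP-1 letters stood in 15% (9 windows), against 3.09% and 6.75% in the same order. The E-box letters stood in 26.7%, against 11.7% and 13.0%, and the TEAD letters in 18.3%, against 9.20% and 12.6%. The SOX letters stood in 20%, between the 14.6% of windows open in all 4 lists and the 27.7% of all windows. Some of the 60 windows overlap each other, as at Synj2 and Ccdc33, so shared bases are counted more than once. These shares rest on few windows and carry no test, and a match of letters is not a bound site.

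About as many OPC-only regions were counted in gene bodies as outside genes. Of the 22702 OPC-only regions on assembled chromosomes, 10743 (47.3%) lay in gene bodies, 1419 (6.25%) near a gene end (at most 1 kb) and 10540 (46.4%) outside genes. OL-only regions lay more often in gene bodies (22196 of 35847, 61.9%), and regions of all 4 lists less often (23982 of 55402, 43.3%), with far more of them at gene ends (23.4%). Of regions with any other pattern of peaks, 51.1% lay in gene bodies. Of all 229485 merged regions on assembled chromosomes, 115975 did. The sequence outside genes was not measured, so the counts inside and outside genes are not compared per length. OL-only regions made up 19.1% of all gene-body regions. Over the 987.9 Mb of gene-body sequence that the rule allows, OPC-only regions numbered 10.9 per Mb, against 22.5 OL-only regions per Mb. Thus 32.6% of the gene-body regions that were specific to a cell type in both lines were OPC-only.

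**Figure D1:**
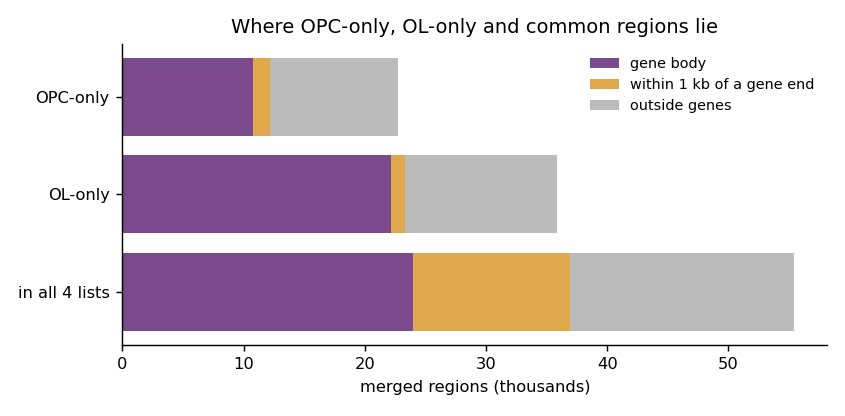
Merged regions on assembled chromosomes (in units of 1000, horizontal axis) with a peak in both OPC lists and no OL list (top bar), in both OL lists and no OPC list (middle) or in all 4 lists (bottom), split by place. Gene bodies hold 10743 of the OPC-only, 22196 of the OL-only and 23982 of the common regions.

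The OPC-only gene-body regions were narrow and of middling strength. Their median width was 267 bp, with a range of 100 to 1445 bp and only 27 regions over 1 kb, and together they spanned 3.29 Mb. OL-only gene-body regions had a median width of 231 bp, and gene-body regions of all 4 lists 418 bp. The median fold enrichment of the OPC-only gene-body peaks was 6.498 in EpiSC5 OPCs, with quartiles of 5.04 and 8.65, and 6.51 in 129O1 OPCs, with quartiles of 5.16 and 8.49. The OPC-only regions outside genes had medians of 6.998 and 7.05 in the same lists, and the gene-body regions of all 4 lists had 8.20 and 8.15.

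By −log10 q, the median OPC-only gene-body peak stood at percentile 42.4 of the EpiSC5 OPC list and 39.7 of the 129O1 OPC list. Outside genes the median OPC-only peak stood at 45.9 and 43.8, and the median gene-body peak common to all 4 lists at 68.2 and 67.0. Both OPC lists placed 2386 of the regions (22.2%) above their median and 4579 (42.6%) below it, and 45 regions reached the best 10% of both lists. The peak was wider in EpiSC5 OPCs than in 129O1 OPCs for 63.8% of the regions, while the fold was higher in EpiSC5 for 49.7%. Across the 10743 regions, the Spearman correlation of fold between the 2 OPC libraries was 0.56 and that of covered base pairs 0.451, given as descriptions because the regions share the same pair of libraries.

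**Figure D2:**
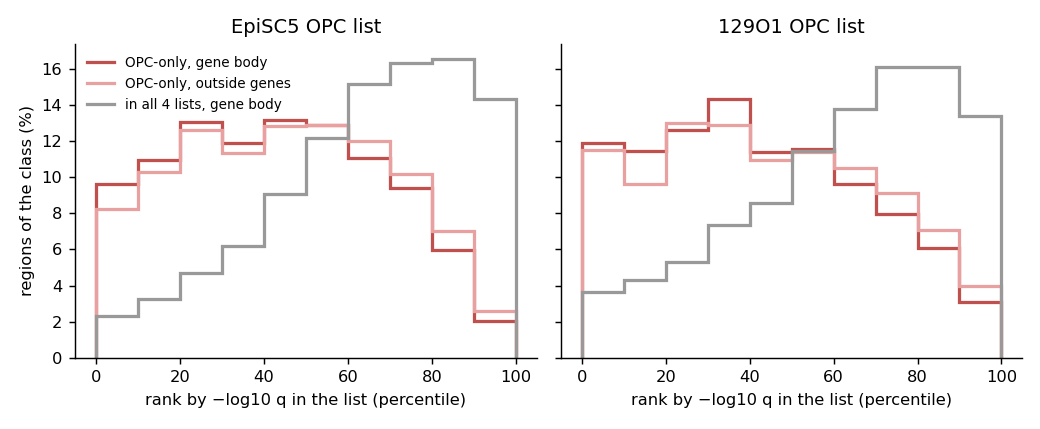
Share of regions (%, vertical axis) by the rank of their peak within the EpiSC5 (left) and 129O1 (right) OPC list by −log10 q (percentile, 100 the best), in bins of 10. Gene-body regions common to all 4 lists crowd towards the best ranks (median percentile 68.2 and 67.0), and OPC-only gene-body regions spread over the lower and middle ranks (42.4 and 39.7).

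The threshold of the peak caller set the edge of the class. A further 4266 gene-body regions had a peak in both OPC lists and in 1 OL list, 2148 of them in EpiSC5 OLs and 2118 in 129O1 OLs. Their single OL peak had a median −log10 q of 7.94, and the weakest had 3.01, next to the lowest value of the OL lists. Another 24107 gene-body regions had a peak in 1 OPC list and in no other list, 10912 in EpiSC5 and 13195 in 129O1. The distance rule moved few regions, with 76 OPC-only regions kept that lay beyond 1 kb by at most 100 bp and 93 left out that fell short of it by less than 100 bp.

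Reading 1 line with regions chosen in the other gives values that the choice did not use. Of 26830 gene-body regions with an OPC peak and no OL peak in 129O1, EpiSC5 had an OL peak and no OPC peak in 2.77%, an OPC peak and no OL peak in 40.04%, both in 8.01% and neither in 49.2%. Of 24245 such regions chosen in EpiSC5, 129O1 had these states in 1.95%, 44.3%, 8.74% and 45.0%. Thus, where the line that was read had a peak in only 1 cell type, that cell type was the OPC in 93.5% of cases in EpiSC5 and 95.8% in 129O1. Among gene-body regions with peaks in both cell types of the choosing line, this share was 49.5% in EpiSC5 and 34.9% in 129O1. The converse choice was kept more often: of regions with an OL peak and no OPC peak in 129O1, 71.9% had the same state in EpiSC5, and of those chosen in EpiSC5, 52.8% had it in 129O1. In both directions the regions that kept an OPC peak and no OL peak are the 10743 OPC-only gene-body regions themselves. The shares therefore describe how that class arose and are no separate evidence for it. The borders of the regions came from all 4 lists, and each direction rests on 1 line, so no test was made.

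**Figure D3:**
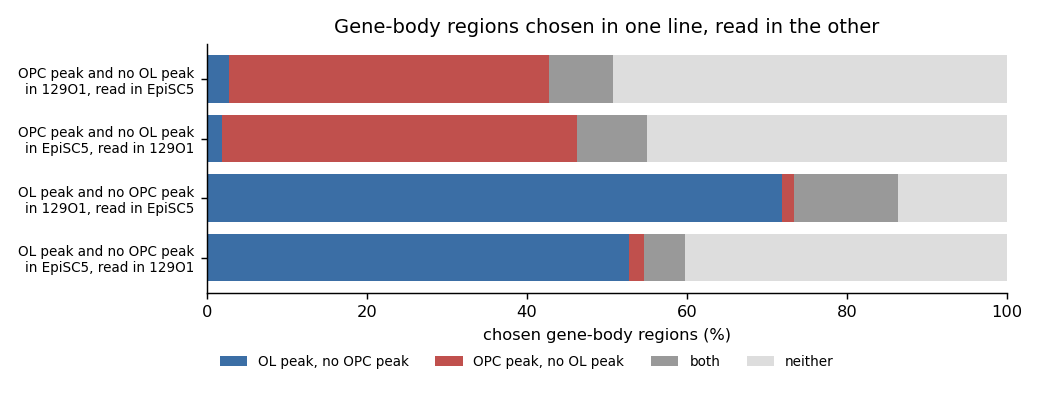
State in the line that was read (% of the chosen gene-body regions, horizontal axis) for regions chosen in the other line, by an OPC peak and no OL peak (2 upper bars) or by an OL peak and no OPC peak (2 lower bars). An OPC peak alone recurs in 40.04% and 44.3% of the upper bars, and the opposite state fills 2.77% and 1.95%.

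The regions were spread over many genes. Of 19252 protein-coding genes with sequence that the rule allows, 4803 (24.9%) held at least 1 OPC-only gene-body region, and 1290 (6.7%) held 3 or more. A single region was found in 2596 genes, 2 in 917, between 3 and 9 in 1188, and 10 or more in 102. The 1290 genes with 3 or more held 6391 regions (59.5%). A region counts for every gene around its midpoint, which gave 91 regions more than 1 gene. OL-only regions were found in 6970 genes (36.2%), and 3318 of the 4803 genes (69.1%) held both kinds. More OPC-only than OL-only regions were counted in 2054 genes (10.7%) and fewer in 5573 (28.9%), and 133 genes held 3 or more OPC-only regions and no OL-only region.

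Longer genes held more of the regions. The median length was 74.3 kb for genes with an OPC-only region and 15.3 kb for those without, and 202 kb for genes with 3 or more. Across genes the Spearman correlation between the number of regions and the allowed sequence was 0.545, a description over genes of the same 4 libraries. The density varied less, from 9.98 per Mb in genes up to 20 kb to 12.8 per Mb in genes of 100 to 200 kb, and was 8.22 per Mb in genes over 500 kb. Among autosomes it lay between 9.90 per Mb on chromosome 3 and 13.5 per Mb on chromosome 19. The X chromosome had 5.90 OPC-only and 6.77 OL-only regions per Mb, so that 46.6% of its switching regions were OPC-only, against 29.0% to 36.1% on the autosomes.

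Genes with many OPC-only regions were long and of several kinds. Arhgap26, which encodes a GTPase-activating protein, held 24, and so did Dab1 (chr4:103619500-104744844), the adaptor that passes on the reelin signal. Nfia (chr4:97578066-98118876), a nuclear factor I gene that acts in glial development, and Rbms3, which encodes an RNA-binding protein, held 20 each. The presynaptic adhesion gene Nrxn3 held 18. Kalrn, a guanine nucleotide exchange factor for small GTPases, Pde4d, a cAMP phosphodiesterase, Ank2, an ankyrin that ties membrane proteins to spectrin, and Ptprd, a receptor tyrosine phosphatase of synapses, held 17 each. Frmd4a, Ptprn2 and the Slit receptor gene Robo1 held 16 each.

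These genes also held common and OL-only regions beside their OPC-only regions. Nfia carried 65 (EpiSC5) and 58 (129O1) peaks in OLs, against 69 (EpiSC5) and 83 (129O1) in OPCs. It held 31 regions common to all 4 lists and 10 OL-only regions beside its 20 OPC-only regions. The widths of these 20 ran from 156 to 703 bp, and their folds from 3.17 to 9.73 in EpiSC5 OPCs and from 3.17 to 9.74 in 129O1 OPCs. Both OPC counts of Nfia lay above both OL counts, as in 9.12% of all genes, but its OPC-only regions, for which it was chosen, are part of the OPC counts.

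Rbms3 had 33 (EpiSC5) and 27 (129O1) peaks in OLs, against 50 (EpiSC5) and 43 (129O1) in OPCs, with 8 OL-only regions. Ank2 had 52 (EpiSC5) and 43 (129O1) peaks in OLs, against 58 (EpiSC5) and 68 (129O1) in OPCs, with 6 OL-only regions. In Arhgap26 the counts were 75 (EpiSC5) and 53 (129O1) in OLs, against 87 (EpiSC5) and 81 (129O1) in OPCs. In Rbms3, Ank2 and Arhgap26 the OPC counts lay above the OL counts, which the choice of these genes by their OPC-only regions favours. Dab1 had 94 (EpiSC5) and 63 (129O1) peaks in OLs, against 76 (EpiSC5) and 77 (129O1) in OPCs, so its groups overlapped, and it held 27 OL-only regions beside its 24. Pde4d had 34 OL-only regions beside its 17. In Dab1 and Pde4d the OL-only regions thus outnumbered the OPC-only regions.

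**Figure D4:**
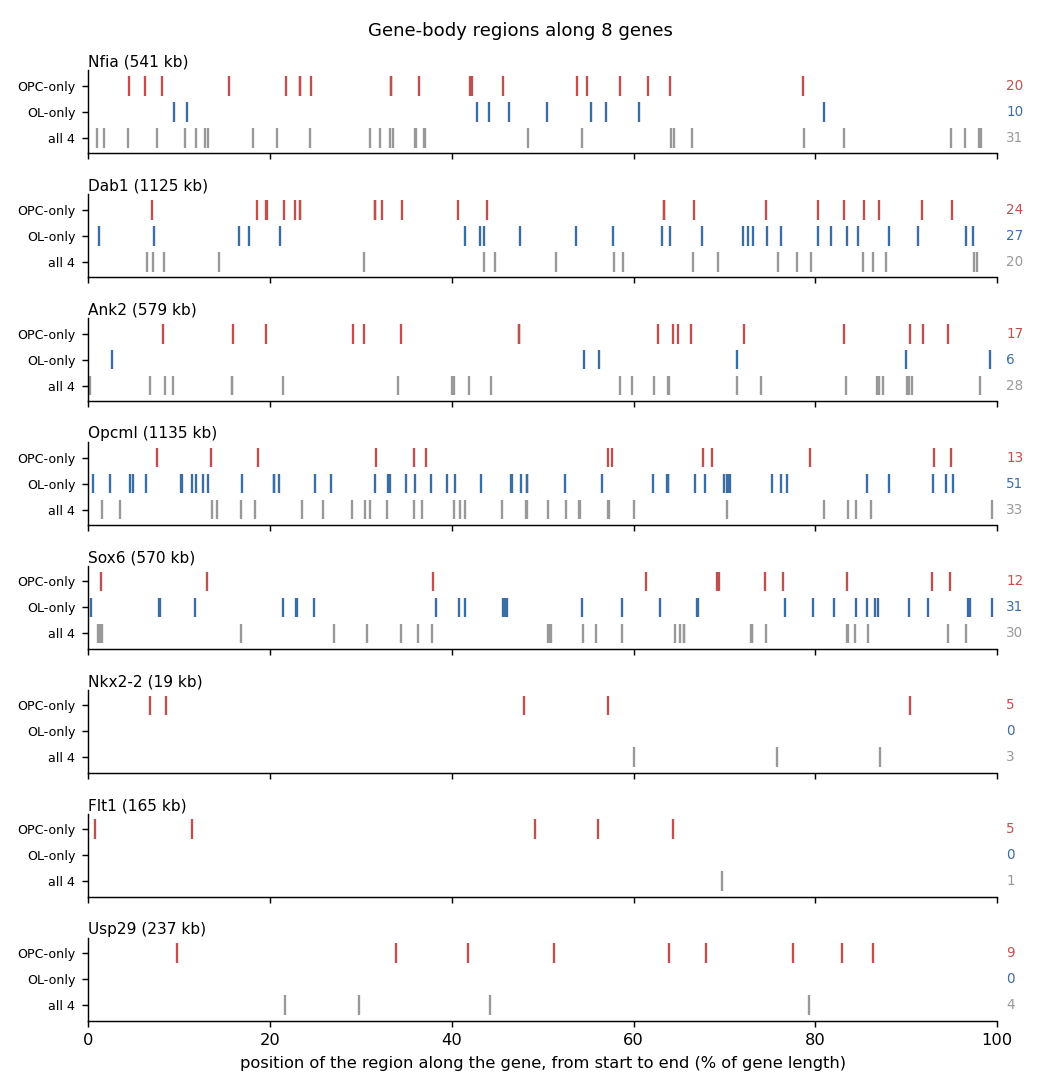
Positions of OPC-only (top row of each panel), OL-only (middle) and common (bottom) gene-body regions along 8 genes, as a percentage of the length from gene start to gene end, with the number of regions at the right. OPC-only and OL-only regions are interspersed in Nfia, Dab1, Ank2, Opcml and Sox6, and Nkx2-2, Flt1 and Usp29 hold no OL-only region.

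Per length, the homeobox gene Nkx2-2 (chr2:147176485-147195434), whose product acts in oligodendrocyte specification, was the densest of the genes with 5 or more regions. It held 5 in 18.95 kb and no OL-only region. It had 4 peaks in OLs of either line, against 10 in OPCs of either line. The OPC counts include its 5 OPC-only regions, for which it was chosen. The 2 regions nearest its start, 1.285 and 1.618 kb into the gene, had folds of 6.31 and 6.05 in EpiSC5 OPCs and 10.1 and 5.14 in 129O1 OPCs. The 3 others lay 9.08, 10.8 and 17.1 kb into the gene and had folds of 2.18 to 3.296 in EpiSC5 OPCs and 3.44 to 3.71 in 129O1 OPCs. A peak of EpiSC5 OLs lay within 244 to 2104 bp of each of the 5. Among the next densest were Eva1c (7 regions), Dnaic1, a dynein gene of cilia (6), the membrane-cytoskeleton linker gene Msn (6) and Ttc7 (8).

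Among the genes with most OPC-only and no OL-only regions were Usp29 (9), Nhs, Runx1t1 and Spata16 (6 each). Usp29 (chr7:6730559-6967220), which encodes a ubiquitin-specific protease, had 6 (EpiSC5) and 11 (129O1) peaks in OLs, against 21 (EpiSC5) and 20 (129O1) in OPCs. Its 9 regions ran from 23.0 to 204.4 kb into the gene, with folds from 5.04 to 17.5 in EpiSC5 OPCs and from 5.02 to 16.8 in 129O1 OPCs. The strongest, at chr7:6851761-6852046, was among the 6 gene-body regions with the highest fold in the weaker OPC list. The excess of OPC peaks over Usp29 is part of what chose it.

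Single regions that stood out by size or strength lay in genes of several kinds. The most covered sequence was found in the NMDA receptor gene Grin2a (chr16:9993742-9995186), where peaks covered 1445 bp in EpiSC5 OPCs and 802 bp in 129O1 OPCs with folds of 7.41 and 5.84. The nearest OL peak lay 197598 bp away in EpiSC5 and 197603 bp away in 129O1. The midpoint of this region lay only 1619 bp from a gene end. Among the next were regions in the teneurin gene Tenm4, the corepressor gene Ctbp2, Lsp1, the lipoprotein receptor gene Lrp1, the BMP receptor gene Bmpr1b and Lrrc20, with a mean of 955 to 1090 bp covered. The highest fold in the weaker list was found in Alb, the serum albumin gene, at 20.9 in EpiSC5 OPCs and 19.3 in 129O1 OPCs. Trpm7, an ion channel gene, had 22.5 and 18.6, Anks1b 19.6 and 17.5, and Macc1 21.7 and 16.8 in the same order. The region in Alb was covered over 265 bp in EpiSC5 OPCs and 228 bp in 129O1 OPCs, against medians of 221 and 189 bp over all OPC-only gene-body regions.

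OPC identity genes held regions of both kinds, most of them OL-only. Of 32 genes of the OPC identity list, 17 (53.1%) held an OPC-only region and 14 held 3 or more, against 24.9% and 6.7% of all genes and 78.3% and 43.04% of the 2428 genes over 100 kb, a length that 15 of the 32 passed. The list had 99 OPC-only and 279 OL-only regions, an OPC share of 26.2%, against 32.6% over all gene bodies. More OPC-only than OL-only regions were counted in 3 of its genes and fewer in 15. Opcml, an IgLON adhesion gene, held 13 OPC-only and 51 OL-only regions, and Sox6, a SoxD transcription factor gene of the progenitor state, 12 and 31. The semaphorin gene Sema5a held 5 and 37, and the tenascin gene Tnr 5 and 26. Megf11 was balanced at 11 and 11. Nkx2-2 (5 and 0), Emid1 (2 and 0) and the receptor phosphatase gene Ptprz1 (3 and 2) were the exceptions. Pdgfra and Cspg4, which encode the antigens used for the OPC sort, held no OPC-only gene-body region.

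Transcription factors of the oligodendrocyte lineage held 107 OPC-only and 166 OL-only regions, an OPC share of 39.2%, in 17 of 36 genes. These 17 are 48.6% of the 35 with allowed sequence, against 24.9% of all genes and 78.3% of genes over 100 kb. That length was passed by 13 of the 36. Nfia (20 and 10) stood beside the E-protein gene Tcf4 (12 and 11), Tcf12 (6 and 13), Tcf7l2, a Wnt effector (6 and 9), and Nfib (7 and 9). The neural zinc finger gene Myt1l held 8 and 5, and Klf9, a thyroid hormone-responsive factor, 3 and 0. Its relative Klf12 held 3 and 5. St18 held 1 and 11, Zfp536 4 and 14 and the myelin regulatory factor gene Myrf 0 and 2. The list of mature oligodendrocyte and myelin genes had 25 OPC-only and 80 OL-only regions, an OPC share of 23.8%. With the best 50% of each list its share was 35.3%, above the 32.3% over all gene bodies, and with the best 50% of the OPC lists alone it was 7.41%, above 7.06%. The phosphodiesterase gene Pde4b held 7 and 29 of them and Mbp, which encodes myelin basic protein, 3 and 5. Only 9 of its 32 genes (28.1%) held an OPC-only region, close to the 24.9% of all genes.

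Genes for channels and receptors differed in balance. Of 23 genes for voltage-gated sodium and calcium channels, with a median length of 155 kb, 21 (91.3%) held an OPC-only region, against 24.9% of all genes and 78.3% of genes over 100 kb. They had 79 OPC-only and 76 OL-only regions (51.0%). The calcium channel subunit gene Cacna2d3 held 12 and 13, and the pore subunit genes Cacna1c and Cacna1e held 11 and 10 and 8 and 7. Potassium channel genes had 85 and 115 (42.5%), led by the BK channel gene Kcnma1 (12 and 15), the channel-interacting gene Kcnip1 (11 and 7) and Kcnd2 (11 and 11). Glutamate receptor genes had 81 and 154 (34.5%), close to the share over all gene bodies. The NMDA subunit gene Grin2b held 9 and 5, the metabotropic receptor gene Grm3 8 and 4, and the kainate receptor gene Grik3 7 and 12. Grm3 (chr5:9485236-9725352) had 7 (EpiSC5) and 6 (129O1) peaks in OLs, against 12 (EpiSC5) and 13 (129O1) in OPCs, counts that include its OPC-only regions. Its 8 regions had folds from 4.43 to 14.6 in EpiSC5 OPCs and from 4.11 to 12.9 in 129O1 OPCs. Receptors for GABA, glycine, acetylcholine and opioids had 26 and 40 (39.4%).

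Guidance and adhesion genes held many regions of both kinds. Semaphorin, plexin, Eph, Slit, Robo and netrin genes had 138 OPC-only and 244 OL-only regions (36.1%) in 31 of 37 genes, with Robo1 at 16 and 12, its ligand gene Slit3 at 13 and 11 and Sema6d at 10 and 15. These 31 are 83.8% of the list, against 24.9% of all genes and 78.3% of genes over 100 kb. That length was passed by 32 of the 37. Teneurin, contactin, neurexin, IgLON and cadherin genes had 197 and 516 (27.6%) in 34 of 36 genes (94.4%), of which 35 passed 100 kb. Within that list Nrxn3 held 18 and 17, and the teneurin gene Tenm2 15 and 11. Small GTPase regulators and cytoskeletal genes had 208 and 311 (40.1%). Of 33 genes 32 held an OPC-only region, against 24.9% of all genes and 78.3% of genes over 100 kb, a length that 32 of the 33 passed. Elmo1, which acts in Rac activation, held 14 and 33, the opposite balance to Arhgap26 (24 and 13) and Ank2 (17 and 6). Genes of the extracellular matrix and its receptors had 91 and 140 (39.4%), with Adamtsl1 at 12 and 10, the sulfatase gene Sulf1 at 6 and 8 and the laminin gene Lama2 at 6 and 2.

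Signalling pathways showed the same mixture. Wnt pathway genes had 82 OPC-only and 103 OL-only regions (44.3%), among them the inhibitor gene Znrf3 (8 and 5), the receptor gene Ror1 (7 and 8) and the planar cell polarity gene Prickle2 (7 and 4). Notch, BMP and TGF-beta genes had 70 and 91 (43.5%), with the Notch coactivator genes Maml2 (12 and 23) and Maml3 (7 and 6) and the latent TGF-beta binding gene Ltbp1 (6 and 7). The list named for PDGF and FGF signalling and ERK feedback had 28 and 55 (33.7%). The genes on it with most OPC-only regions, Fgf14 (4 and 4), Egfr (4 and 8) and Pdgfc (3 and 5), held few. Chromatin regulators had 60 and 133 (31.1%), with the BAF subunit gene Arid1b at 8 and 29, Arid5b at 6 and 6 and the deacetylase gene Hdac9 at 5 and 15. Cell cycle genes are short and had 20 and 38 (34.5%) in 8 of 32 genes, 25% against 24.9% of all genes. Cdk14 held 8 and 21, Cdk6 2 and 2, and the cyclin gene Ccnd3 3 and 0.

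Markers of other cell types were also among the host genes, and the vascular and mesenchymal list leaned to OPCs. Its genes held 18 OPC-only and 6 OL-only regions (75%), in 8 of 20 genes. These 8 are 42.1% of the 19 with allowed sequence, against 24.9% of all genes and 78.3% of genes over 100 kb. That length was passed by 3 of the 20. Prrx1 held 5 and 0 and the VEGF receptor gene Flt1 5 and 0, and the pericyte marker Pdgfrb held 2 and 1. Flt1 (chr5:147561604-147726438) had 1 (EpiSC5) and 3 (129O1) peaks in OLs, against 11 (EpiSC5) and 10 (129O1) in OPCs. Prrx1 (chr1:163245119-163315145) had 4 (EpiSC5) and 3 (129O1) in OLs, against 7 (EpiSC5) and 11 (129O1) in OPCs. The OPC counts of Flt1 and Prrx1 include the 5 OPC-only regions of each gene. Over the 7 vascular and mesenchymal markers with 2 kb on both sides, peaks covered 4.55 (EpiSC5) and 4.04 kb (129O1) in OLs, against 11.8 (EpiSC5) and 10.4 kb (129O1) in OPCs. The 7 markers held 14 OPC-only and 2 OL-only gene-body regions, which are part of this coverage and which the rule itself chose. Of these 7, 6 had a peak in each library, and the endothelial gene Cldn5 was at 0 in all 4. Whether other cells in the OPC cultures took part in these values was not tested.

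The astrocyte list had 20 OPC-only and 22 OL-only regions (47.6%), among them 3 and 1 in the glutamate transporter gene Slc1a3, 4 and 3 in the bicarbonate transporter gene Slc4a4 and 6 and 8 in Gpc5. Astrocyte markers were covered over 6.62 (EpiSC5) and 5.95 kb (129O1) in OLs, against 10.2 (EpiSC5) and 8.85 kb (129O1) in OPCs, and all 5 had a peak in every library. Among them Aqp4 alone had less coverage in OPCs than in OLs, in both lines. The 5 markers held 4 OPC-only and 4 OL-only regions, which are part of the coverage. The neuron list had 36 and 49 (42.4%), with Map2 at 8 and 9, Celf4 at 7 and 3 and the reelin gene Reln at 7 and 13. Neuron markers were covered over 14.7 (EpiSC5) and 14.2 kb (129O1) in OLs, against 19.0 (EpiSC5) and 14.2 kb (129O1) in OPCs, so their sum was close to equal in 129O1. Rbfox3 made up most of that sum, at 9.754 kb in 129O1 OLs and 8.408 kb in 129O1 OPCs. Snap25 and Gad2 had more coverage in OPCs than in OLs of both lines, and Gad1 had less. Tubb3 had less in EpiSC5 but more in 129O1. The 6 neuron markers held 6 OPC-only and 10 OL-only regions, which are part of this coverage. Microglia and other immune genes had 3 and 7, and pluripotent and epiblast genes 6 and 4, of which Trim71, Esrrb and Lin28b held 2 OPC-only regions each. Microglia markers were covered over 2.90 (EpiSC5) and 2.14 kb (129O1) in OLs, against 2.79 (EpiSC5) and 2.67 kb (129O1) in OPCs, and pluripotent markers over 1.29 (EpiSC5) and 1.56 kb (129O1) in OLs, against 2.004 (EpiSC5) and 1.503 kb (129O1) in OPCs. Pou5f1, the defining pluripotency factor, was at 0 in all 4 libraries, and the neuron gene Stmn2 was at 0 in all but 129O1 OPCs. Markers of the OPC itself were covered over 15.6 (EpiSC5) and 13.3 kb (129O1) in OLs, against 15.7 (EpiSC5) and 13.5 kb (129O1) in OPCs. OL markers were covered over 22.6 (EpiSC5) and 17.2 kb (129O1) in OLs, against 14.0 (EpiSC5) and 9.15 kb (129O1) in OPCs. All 7 OPC markers had peaks in all 4 libraries, and their summed coverage was about the same in both cell types. The sum of the OL markers was larger in OLs of both lines. Single markers departed from these sums. Sox10 was covered over 1.744 (EpiSC5) and 1.301 kb (129O1) in OLs, against 0.863 and 0.709 kb in OPCs. Ptprz1 was covered over 3.645 (EpiSC5) and 2.846 kb (129O1) in OLs, against 4.548 and 3.441 kb in OPCs. The OL markers Cnp and Cldn11 had more coverage in OPCs than in OLs in EpiSC5, but not in 129O1.

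The balance by list held broadly within each line when each line was read by itself. Over all gene bodies, regions with an OPC peak and no OL peak made up 36.6% of the cell-type-specific regions in EpiSC5 and 46.5% in 129O1. The OPC identity list lay below that in both lines, at 26.8% and 40.5%, and so did the myelin list, at 31.0% and 39.0%. The vascular and mesenchymal list lay above it at 64.7% and 78.6%, sodium and calcium channels at 52.9% and 58.1%, and the astrocyte list at 53.3% and 57.1%. The pluripotent list reached 81.3% and 73.7%, on 32 and 19 regions. These shares use the same lists that chose the regions and carry no test.

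**Figure D5:**
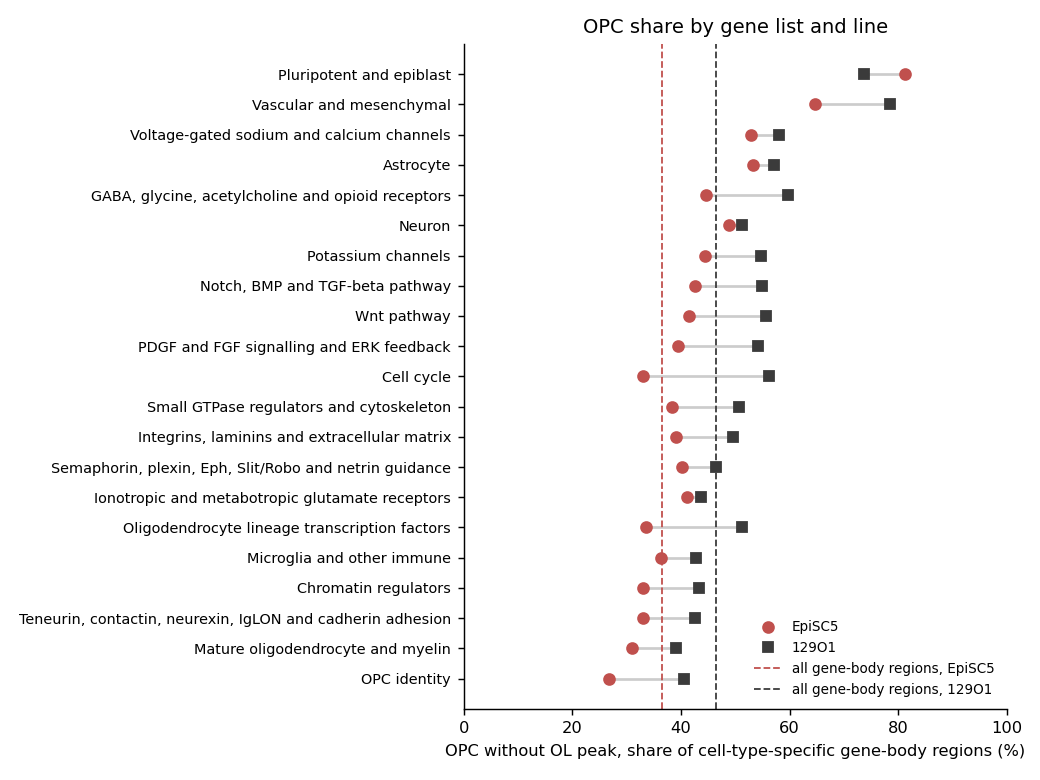
Share of OPC-specific among cell-type-specific gene-body regions (%, horizontal axis) for 21 gene lists, read in EpiSC5 (circles) and 129O1 (squares) by itself, with dashed lines for all gene bodies (36.6% and 46.5%). The pluripotent and vascular lists lie far to the right, and the OPC identity list lies left of both lines at 26.8% and 40.5%.

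Most of the regions had no other of their kind within 10 kb. Peaks of the other cell type lay closer, but the OL lists hold far more peaks than the class has regions. The 2 distances are therefore not on the same footing. The nearest peak in either OL list lay at a median of 2936 bp, within 1 kb for 26.5% of the regions and within 100 bp for 2.01%, and over 50 kb away for 120. OL-only gene-body regions had their nearest OPC peak at a median of 3657 bp, and OPC-only regions outside genes had their nearest OL peak at 5507.5 bp. The nearest other OPC-only gene-body region lay at a median of 27.2 kb and within 10 kb for 26.9%, against 10.0 kb and 50.0% among the more numerous OL-only gene-body regions.

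Runs of OPC-only regions were few. With gaps of at most 10 kb, 7849 of the regions (73.1%) had no other next to them, and 203 runs of 3 or more held 656. Of the 34 runs of 4 or more, 17 had no OL-only region among them. The longest held 6 regions, in Arhgap26, Lrrc28, the cytoskeletal linker gene Dst and Dnaic1. In the Arhgap26 run, which spanned 26.3 kb, OLs had 2 (EpiSC5) and 0 (129O1) peaks, against 7 (EpiSC5) and 8 (129O1) in OPCs. Runs of 4 with no OL peak at all in either line lay in Deptor, an inhibitor of mTOR (chr15:55134712-55143087), Ston1 (chr17:88626378-88630918) and the adhesion gene Sdk2 (chr11:113951736-113970523). In these 3 runs OPCs had 4 to 6 peaks in each line.

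Along the gene the regions were nearly even. Where the strand was known, each 10% of the gene length held between 8.06% and 10.7% of the regions, with 9.98% in the first 10%, against 6.82% of OL-only and 10.97% of common gene-body regions. Within 10 kb of the outermost start lay 14.9% of the OPC-only regions, against 11.7% of the OL-only and 20.4% of the common regions. Genes of long noncoding RNAs overlapped 6.42% of the OPC-only, 4.86% of the OL-only and 6.59% of the common gene-body regions.

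Coverage of the rest of the host gene was a little lower in OLs where a gene held more OPC-only regions. With the OPC-only and OL-only regions taken out and the lists scaled to the same total, the median log2 of OL over OPC coverage was -0.07 in EpiSC5 and -0.04 in 129O1 over 11990 genes. In 1259 genes with 3 or more OPC-only regions it was -0.13 and -0.18. It was -0.27 and -0.28 in the 515 of them with more OPC-only than OL-only regions, of which 65.4% were lower in OLs in both lines, against 40.3% of all genes. In the 619 with fewer, it was -0.02 and -0.07. This coverage comes from the same contrast as the choice of the regions, since regions with a peak in 1 OPC list alone are part of it, and it is a description.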

How the data were processed

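Peak lists of 4 Omni-ATAC-seq libraries were analysed. The submitters' processing notes name the build mm10, MACS2, Picard, Bowtie2 2.3.2 and Trim Galore 0.3.1. For MACS2, its version, threshold and handling of the Tn5 cut were not given in the sources used here. Per library, 1 list was deposited by the authors. A deposited peak has a score (10 times its −log10 q as a whole number), a fold enrichment (a linear ratio over background), and −log10 p and −log10 q values, all made by the authors' peak caller. Without read counts the depth is unknown, and counting intervals were not computed.

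Peaks were merged in Python 3.11.15 (numpy 2.4.6, pandas 2.3.3) and placed in 21883 RefSeq protein-coding genes of GRCm38.p6. Gene, list and region counts, densities, distances and covered base pairs were computed as described with the results. Coverage of the rest of a gene was compared as log2(bp + 200) in genes with a mean of at least 500 bp. The interval code was tested on simulated peaks with known classes. Strand was known for 17491 genes.

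The regions and the 21 gene lists were chosen with earlier results of these data known. Genes are named by rank: the 12 with most regions, the 6 densest, the 5 with most regions and no OL-only region, the 5 with most that also hold 5 or more OL-only regions, and the leading 3 of each list. Regions are the 8 most covered and the 6 with the highest lower fold. Some items picked in this way are not reported here. Further members of the lists, runs of regions and inner starts were picked after their values were seen. Alternatives were the distance from gene ends, peak selection, merging, summit windows, distance from OL peaks, leaving out each library, the added base pairs and the scaling. A motif search over all regions needs genome sequence and was not run. Regions on unplaced sequences are counted in the total only.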

Additional observations from a re-analysis of the deposited data

Results flagged for a closer look

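In 4 gene lists the share of OPC-specific gene-body regions lay on opposite sides of the share over all gene bodies in the 2 lines. These differences were not tested. The lineage transcription factors were 3.01 percentage points below all gene bodies in EpiSC5 (-3.01) and 4.74 points above in 129O1. The cell cycle list was at -3.55 points in EpiSC5 and 9.63 points in 129O1. Glutamate receptors were 4.6 points above in EpiSC5 and at -2.72 points in 129O1, and the guidance list was at 3.7 and -0.12 points. The EpiSC5 counts behind them were 356 OL-specific and 180 OPC-specific regions for the lineage factors and 75 and 37 for the cell cycle genes, and in 129O1 they were 234 and 246, and 50 and 64. The other 17 lists lay on the same side in both lines.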

How the results depend on the processing

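The number of OPC-only gene-body regions (10743) followed the peak selection. With the best 50% of each list by −log10 q it was 5554, with 555 genes holding 3 or more and 5.62 regions per Mb. With the best 50% of the OPC lists and whole OL lists, it was 2389 in 1737 genes, with 145 genes holding 3 or more and 2.42 per Mb, and the share read in the other line was 87.6%, against 94.7% as the mean of both directions. Requiring a peak in only 1 OPC list raised the counts by construction: without an OPC library there were 22007 (without 129O1) and 25377 (without EpiSC5) regions. Over the 4 libraries left out in turn, the number of regions ran from 12877 to 25377, of genes from 5410 to 7628, of genes with 3 or more from 1554 to 2822 and the density from 13.0 to 25.7 per Mb.

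The 2 kb and 5 kb distances from gene ends, lists of equal length, merging within 100 bp, summit windows of 200 bp and 1 kb without an OL peak left all 4 counts within 1.5 times, with 7897 to 11373 regions. The median log2 coverage of the rest of the gene in genes with 3 or more regions was -0.16, and -0.27 without scaling. It was -0.17 with 50 bp and -0.13 with 1000 bp added. Of 79 named genes, 17 kept a count within 1.5 times with the best 50% of each list, and 2 with the best 50% of the OPC lists alone. The OPC share of the OPC identity list lay below, and that of the vascular and pluripotent lists above, the share over all gene bodies in all 12 settings. No result comes from a test, so no fit with the line as a block was made, and values are given by line instead. The planned motif search was not run, and depth is unknown, so a missing peak is not a closed site.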
